A study of Mus musculus with 10 samples.

Results

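Interleukin-6 family cytokines and the JAK-STAT relay that reads them were compared between cultured fibroblasts of normal mouse lung and carcinoma-associated fibroblasts (CAF), the fibroblasts of a tumour, which here were also isolated from mouse lungs. The set has 9 genes out of 18193 measured: the ligands Il6, Il11 and Lif, the receptor chains Osmr and Il6ra, the kinases Jak1 and Jak2, the transcription factor Stat3 and the feedback inhibitor Socs3. They were taken as a list by name, all 9 were measured, and no filter on low values was applied. Each gene was read by its brightest probe set, a group of short oligonucleotides on the Affymetrix Mouse430_2 array. Other probe sets served as a check where a gene had any. Il6 and Il11 had only 1 each, so they had no such check. There were 5 arrays per group, which the sample titles call biological replicates. Cells of both groups grew for 10 to 14 days in DMEM containing 10% serum and spent a last night on 10 cm dishes before RNA was taken. The labels used here name no strain, genotype, age or tumour model and do not say how many mice each culture came from, so the p-values measure the spread between these cultures. Values are log2 expression after robust multi-array averaging (RMA), so a difference of 1 is a doubling.

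Most cytokines of this family bind a receptor chain of their own and then signal through the shared chain gp130, encoded by Il6st. Kinases of the JAK family, held on the receptor tails, phosphorylate STAT3, which enters the nucleus and switches on genes that include its own brake, Socs3. In the lung these cytokines are known from inflammation, scarring and tumour growth, and fibroblasts are among the cells that make them.

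The stretches upstream of the start sites are printed for the 3 ligand genes, whose values differ most between the groups here, and for Socs3, the feedback gene. They come from RefSeq (build GRCm38.p6) and hold the 250 bases before the annotated start, 5′ to 3′ on the gene's strand. Capitals mark the AP-1 motif TGANTCA in the ligand genes and the STAT motif TTCNNNGAA in Socs3, both searched on both strands. The Il6 window lies at chr5:30012864-30013113 on the plus strand, the Il11 window at chr7:4778142-4778391 on the minus strand, the Lif window at chr11:4257318-4257567 on the plus strand and the Socs3 window at chr11:117969367-117969616 on the minus strand.
Il6: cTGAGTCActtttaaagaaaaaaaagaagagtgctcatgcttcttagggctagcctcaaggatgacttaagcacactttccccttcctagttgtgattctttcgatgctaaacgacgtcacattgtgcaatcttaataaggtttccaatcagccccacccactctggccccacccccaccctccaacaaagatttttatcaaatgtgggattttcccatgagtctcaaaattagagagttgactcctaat
Il11: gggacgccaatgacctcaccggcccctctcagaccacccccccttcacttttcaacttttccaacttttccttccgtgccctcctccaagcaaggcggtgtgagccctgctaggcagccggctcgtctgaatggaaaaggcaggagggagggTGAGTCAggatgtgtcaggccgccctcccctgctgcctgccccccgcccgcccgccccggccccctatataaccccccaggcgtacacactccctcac
Lif: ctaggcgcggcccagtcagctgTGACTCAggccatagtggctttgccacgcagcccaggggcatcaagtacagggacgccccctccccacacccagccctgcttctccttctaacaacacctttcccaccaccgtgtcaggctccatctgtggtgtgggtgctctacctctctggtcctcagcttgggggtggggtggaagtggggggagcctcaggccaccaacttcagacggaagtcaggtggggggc
Socs3: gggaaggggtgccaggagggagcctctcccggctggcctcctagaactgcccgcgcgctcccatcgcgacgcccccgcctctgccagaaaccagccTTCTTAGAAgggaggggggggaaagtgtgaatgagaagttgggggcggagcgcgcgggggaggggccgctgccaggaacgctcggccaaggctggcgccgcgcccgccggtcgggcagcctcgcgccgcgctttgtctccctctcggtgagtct

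All 9 genes had an entry, and Il11 had 2 starts. The Il11 window printed is the one with an AP-1 match, chosen with the matches in view. The window of the other start, chr7:4782858-4783107, held no match to any of the motifs searched. The AP-1 motif was found in 3 of the 10 windows, those of Il6, Il11 and Lif printed above, and in 6.75% of the 32851 windows of this length over all genes. It lay 243 to 249 bases before the start in Il6, 92 to 98 bases in Il11 and 222 to 228 bases in Lif. The STAT motif was found once, in Socs3, 146 to 154 bases before the start, and in 7.02% of all windows. An NF-kappaB motif was matched in the windows of Il6 and Lif and in 7.25% of all windows. None of the marked matches overlaps another motif searched. A match describes these letters and does not show that a factor binds.

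Over all probe sets the array medians were 6.76 to 6.80 in normal and 6.73 to 6.74 in CAF, and the upper quartiles 9.05 to 9.13 and 9.22 to 9.30, so the groups differed slightly in scale without overlap. Of the genes called, 74.5% were higher in CAF as deposited and 46.7% after quantile normalisation, while Lif stayed called (2.27, limma adjusted p = 0.0410). Fibroblast markers such as Col1a2, Vim and Col1a1 were bright in both groups, and the mean of the 10 marker genes was 12.79 ± 0.70 on normal and 12.55 ± 0.68 on CAF arrays (SD, n = 5). Macrophage markers, 10 genes led by Lyz2, Csf1r and Cd14, were also read, with list means of 9.14 to 12.58 in normal cultures and 10.09 to 12.60 in CAF. Normal replicate 3 stood apart in neutrophil markers, with a list mean of 11.97 against 6.81 to 8.14 on the other 9 arrays. Mesothelial markers, 5 genes led by Upk3b, Wt1 and Lrrn4, all had lower means in CAF, as did 10416 of all 18193 genes, and 0 passed. Their list means were 5.88 to 10.20 in normal cultures and 6.63 to 8.99 in CAF, and Lrrn4 had the largest decrease of all genes, -2.99 ± 1.15 (limma adjusted p = 0.170). The label codes of normal replicates 1 to 3 begin with vs, and those of normal replicates 4 and 5 and of all CAF arrays with ls. What these prefixes mean is not stated in the labels, so differences are also given against each kind of normal array.

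Of the 9 genes, 1 passed the test: Lif was higher in CAF. Il6 and Il11 also had large differences in mean but with more spread, and the receptors, kinases, Stat3 and Socs3 differed by less than 0.5 on the log2 scale. Limma called 137 genes of all those tested (0.753%), 102 higher in CAF (0.561%) and 35 lower (0.192%), at a Benjamini-Hochberg adjusted p under 0.05. The median difference of the 9 genes was 0.37, against -0.04 over all genes. It was 0.08 over the 9096 brighter genes by mean level, which include 8 of the 9. The 5 CAF values lay wholly above the 5 normal values in 2 of the 9 genes, Il6 and Lif. They did so in 2.97% of all genes and in 457 of the 9096 brighter genes. The 9 genes have 21 probe sets, of which 2, both of Lif, were called when every probe set was tested singly, as were 1.34% of all probe sets.

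Il6, the cytokine that gives the family its name, had log2 levels of 11.24, 13.92, 12.56, 14.04 and 12.56 on normal replicates 1 to 5. On CAF replicates 1 to 5 it had 14.64, 14.32, 14.67, 14.95 and 14.85. Every CAF culture was above every normal culture, by as little as 0.28 between the lowest CAF and the highest normal array, and the normal cultures were far more scattered. The means were 12.86 ± 1.15 in normal and 14.69 ± 0.24 in CAF (SD, n = 5). The difference of 1.82 ± 0.48 (SE), or 3.54-fold with a 95% interval of 1.69 to 7.42, did not pass over all genes (limma adjusted p = 0.0860). An exact 2-sided permutation test of Il6 alone gave p = 0.00794, the smallest that 5 against 5 arrays allow. Normal replicates 2 and 4 came closest to the CAF level. The Il6 difference was 1.39 ± 0.37 with the 2 ls normals as the reference and 2.11 ± 0.51 with the 3 vs normals. In bulk RNA of cultures, a change in the share of cells that make a transcript and a change in the transcript per cell cannot be told apart.

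Il11, a family member made by fibroblasts and other stromal cells, had the largest difference of the set and the widest scatter. Its levels on normal replicates 1 to 5 were 7.49, 8.79, 10.04, 12.34 and 9.78. On CAF replicates 1 to 5 they were 12.16, 13.18, 12.90, 12.98 and 13.48. Normal replicate 4 was the exception, above the lowest CAF culture, while the other 4 normal cultures lay well below all CAF cultures. The means were 9.69 ± 1.79 in normal and 12.94 ± 0.49 in CAF (SD, n = 5), a difference of 3.25 ± 0.75 or 9.52-fold (95% interval 2.96 to 30.6). It did not pass over all genes (limma adjusted p = 0.0684; exact permutation p = 0.0159 for Il11 alone), although only 6 genes had a larger increase. With 1 array left out Il11 passed in 1 of 10 cases, without normal replicate 4, the array that overlaps CAF (3.92, limma adjusted p = 0.0281), and the adjusted p reached 0.175 in the others. It was 1.88 ± 0.65 from the ls normals and 4.17 ± 0.54 from the vs normals, and only the latter passed (limma adjusted p = 0.140 and 0.0334).

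Lif, leukaemia inhibitory factor, which signals through its receptor Lifr together with gp130, passed the test. Normal replicates 1 to 5 had 8.81, 8.46, 8.75, 10.47 and 9.39, and CAF replicates 1 to 5 had 10.99, 11.18, 11.88, 11.57 and 12.01. The groups did not overlap, with 0.53 between the highest normal array, again replicate 4, and the lowest CAF array. The difference was 2.35 ± 0.37, or 5.11-fold with a 95% interval of 2.88 to 9.08 (limma adjusted p = 0.0394). Its second, dimmer probe set differed by 1.65 ± 0.27 (limma adjusted p = 0.0349 over all probe sets). Leaving out any 1 array left the difference between 2.17 and 2.68, but the call was lost in 7 of 10 cases. The limma adjusted p was 0.0720, 0.0723 and 0.0590 without normal replicate 1, 3 or 5, and 0.0726, 0.110, 0.108 and 0.143 without CAF replicate 1, 3, 4 or 5. Lif differed by 1.60 ± 0.37 from the ls normals and by 2.86 ± 0.25 from the vs normals, and the first of these did not pass (limma adjusted p = 0.107).

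**Figure D1:**
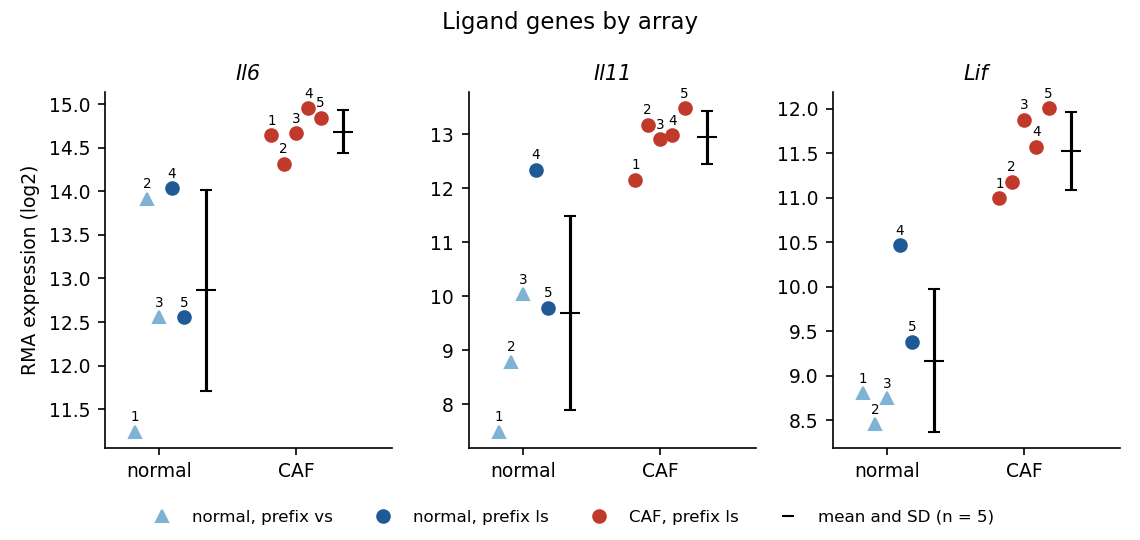
Log2 expression of Il6, Il11 and Lif on each array, with replicate numbers beside the points, triangles for prefix vs and circles for prefix ls; bars give the mean and SD of 5 arrays. CAF arrays lie above all normal arrays for Il6 and Lif, and normal replicate 4 is the highest normal array in each panel.

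Macrophages can also make interleukin-6, and their markers varied from culture to culture. Of the 10 macrophage genes, 9 had a higher and 1 a lower mean in CAF, and 0 passed. A higher mean in CAF was found in 42.7% of all genes and in 60.6% of the brighter genes. The list mean was 10.85 ± 1.42 in normal and 11.33 ± 0.97 in CAF (SD, n = 5). Normal replicate 1 had the highest macrophage level among normal arrays, 12.58, and the lowest Il6 and Il11. Normal replicate 2 had the lowest macrophage level, 9.14, with Il6 at 13.92, Il11 at 8.79 and the lowest Lif of the series, 8.46. CAF replicate 3 had the lowest macrophage level among CAF, 10.09, with Il6 at 14.67 and Lif at 11.88. CAF replicate 5, with a macrophage level of 11.96, had the highest Il11 and Lif of the series, 13.48 and 12.01. Mesothelial markers were highest on normal replicate 1 (10.20) and lowest on normal replicate 2 (5.88). These are single arrays, and the part of macrophages or mesothelial cells in the group differences was not tested. Without normal replicate 3, the array with high neutrophil markers, the differences were 1.75 for Il6, 3.34 for Il11 and 2.25 for Lif.

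**Figure D2:**
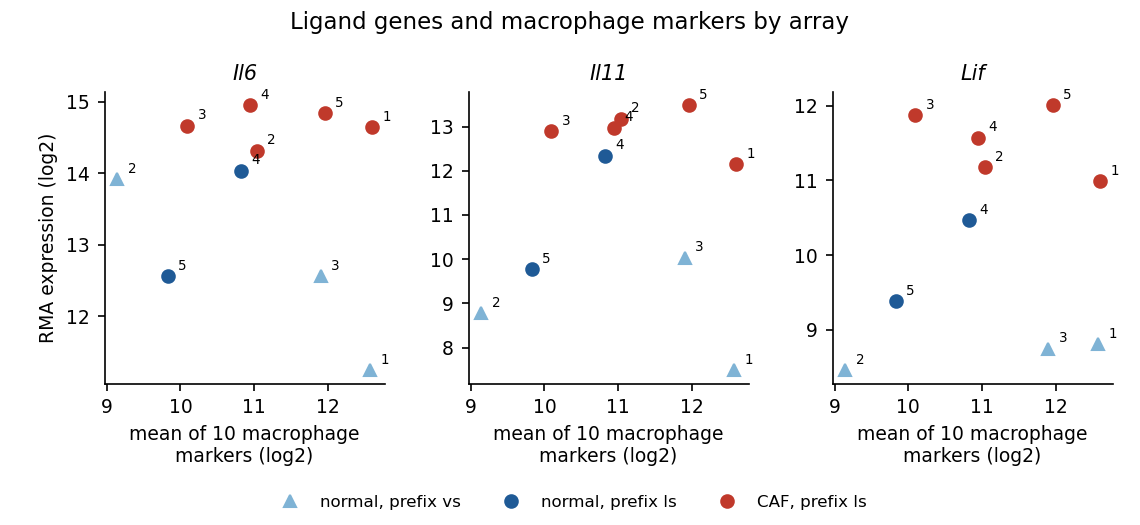
Log2 expression of Il6, Il11 and Lif against the mean log2 level of 10 macrophage markers on the same array, with replicate numbers beside the points and colours and symbols by group and label prefix. The macrophage level ran from 9.14 to 12.58 on normal and from 10.09 to 12.60 on CAF arrays. Its part in the ligand levels was not tested.

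The receptor chains of the set did not pass. Osmr, which pairs with gp130 to bind oncostatin M, had 12.86, 13.43, 11.55, 11.98 and 12.07 on normal replicates 1 to 5 and 12.99, 12.42, 12.68, 12.98 and 12.64 on CAF replicates 1 to 5. Normal replicate 1 lay within the CAF range, normal replicate 2 above it and normal replicates 3 to 5 below it. The difference was 0.36 ± 0.32 (95% interval -0.36 to 1.09, limma adjusted p = 0.530), 0.16 without normal replicate 3 and 0.63 without normal replicate 2. It was 0.71 ± 0.17 from the ls normals and 0.13 ± 0.38 from the vs normals. The second probe set differed by 0.35 ± 0.42 and the dimmest by -0.051 ± 0.075.

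Il6ra, the chain that gives a cell its own response to interleukin-6, was dim, with 8.04, 8.05, 7.73, 7.67 and 7.82 on normal and 7.59, 7.77, 7.71, 7.69 and 7.56 on CAF replicates 1 to 5. Only CAF replicates 1 and 5 lay below all normal arrays. The difference was -0.20 ± 0.09 (95% interval -0.40 to 0.00408, limma adjusted p = 0.232), and the dimmer probe set had 0.10 ± 0.18, of the opposite sign. Small negative differences were common among dim genes on these arrays. The median difference was -0.09 over the 9097 dimmer genes by mean level and 0.08 over the 9096 brighter ones. Whether the value of Il6ra goes beyond that shift was not tested.

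Jak1, the kinase most used by gp130 receptors, had 11.98, 12.15, 11.03, 11.08 and 11.40 on normal and 11.90, 11.70, 12.32, 11.96 and 11.93 on CAF replicates 1 to 5. Normal replicates 1 and 2 lay within the CAF range and the other 3 below it. The difference was 0.43 ± 0.23 (95% interval -0.08 to 0.95, limma adjusted p = 0.297), 0.72 ± 0.17 from the ls normals and 0.24 ± 0.26 from the vs normals. Its other probe sets had 0.41 ± 0.25 and 0.72 ± 0.19, neither past the threshold when probe sets were tested singly. On the latter, the dimmest, the lowest CAF array (9.37) lay just above the highest normal array (9.36).

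Jak2, a partner kinase in these complexes, had 10.94, 11.40, 10.84, 11.07 and 10.77 on normal and 11.16, 11.19, 11.27, 11.88 and 11.34 on CAF replicates 1 to 5. Normal replicate 2 was the single normal array inside the CAF range, and CAF replicate 4 stood above the rest. The difference was 0.37 ± 0.16 (95% interval 0.00252 to 0.73, limma adjusted p = 0.222), and the second probe set had 0.58 ± 0.19. Both kinases were higher in mean in CAF on all 5 of their probe sets, and 0 of these passed.

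Stat3, the transcription factor that these receptors activate, had 12.88, 12.81, 11.99, 12.05 and 12.28 on normal and 12.43, 12.39, 12.32, 12.26 and 12.31 on CAF replicates 1 to 5. The CAF cultures were nearly level with each other (SD 0.07), whereas the normal cultures fell on both sides of them (SD 0.42). The difference was -0.06 ± 0.18, with a 95% interval of -0.46 to 0.34 (limma adjusted p = 0.868), and its sign depended on the normal arrays used, 0.18 ± 0.09 from the ls and -0.22 ± 0.20 from the vs normals. The 3 other probe sets had -0.11 ± 0.22, -0.15 ± 0.14 and -0.32 ± 0.12. On the last, the dimmest, the highest CAF array (5.91) lay just below the lowest normal array (5.92). All these values are transcript levels, and phosphorylation, through which STAT3 is activated, is not read by the arrays.

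Socs3, which binds gp130 and JAK and shuts the signal down, is itself induced by STAT3. It had 11.03, 12.31, 10.39, 10.72 and 10.03 on normal and 12.12, 10.47, 10.51, 11.80 and 11.01 on CAF replicates 1 to 5. High and low cultures occurred in both groups, with normal replicate 2 the highest and CAF replicates 1 and 4 next. The difference was 0.29 ± 0.47 (95% interval -0.76 to 1.33, limma adjusted p = 0.745), and it was 0.81 ± 0.50 from the ls normals and -0.061 ± 0.54 from the vs normals. With 1 array left out it ranged from 0.052, without CAF replicate 1, to 0.64, without normal replicate 2. The other probe sets had -0.031 ± 0.52 and -0.034 ± 0.48. The brightest one is of the _x_at kind, whose oligonucleotides can cross-hybridise. The interval includes no change as well as a doubling.

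**Figure D3:**
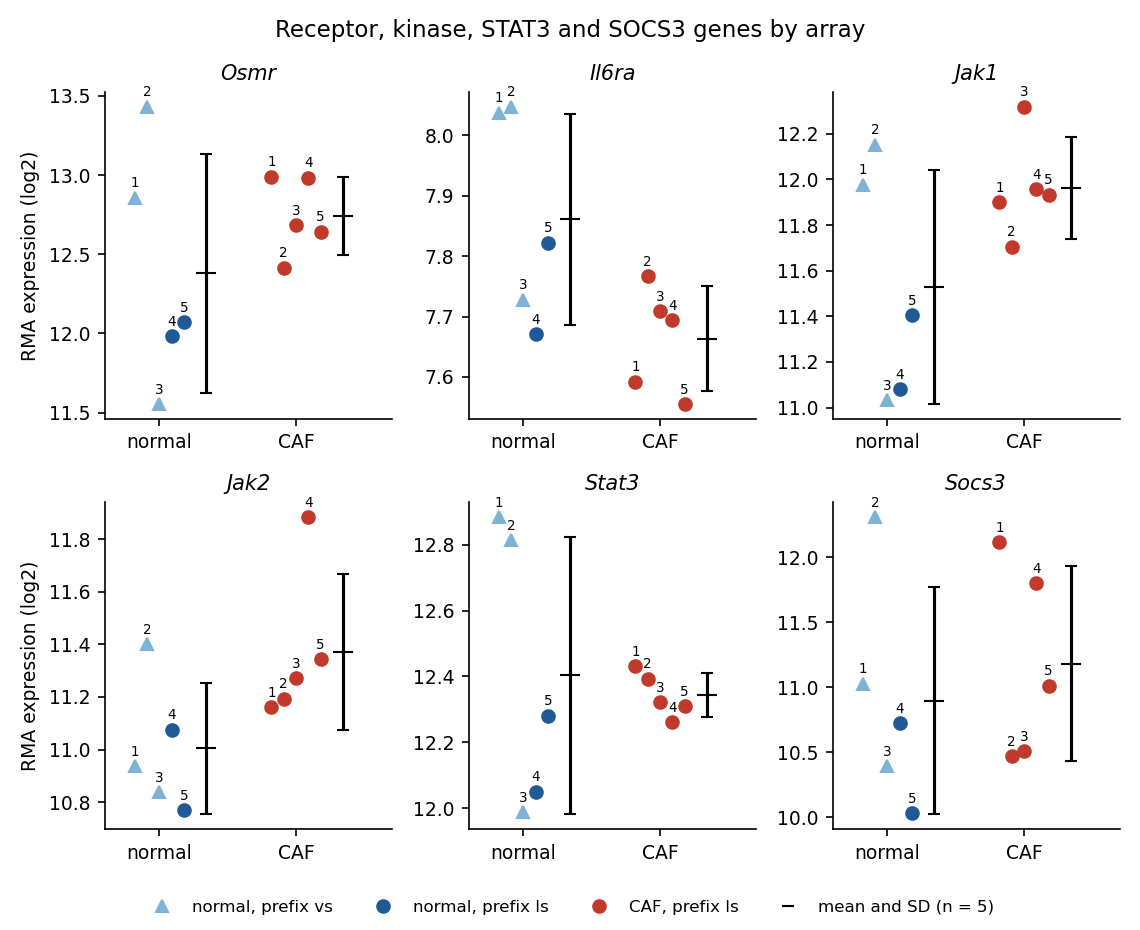
Log2 expression of Osmr, Il6ra, Jak1, Jak2, Stat3 and Socs3 on each array, with replicate numbers, symbols by label prefix, and the mean and SD of 5 arrays as bars. Each panel has its own axis and shows the brightest probe set, on which the groups overlap in all 6 genes.

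The normal cultures varied more than the CAF cultures in 8 of the 9 genes, Jak2 being the exception, as was true of 71.1% of all genes. Normal replicates 1 and 2 held the highest normal values of Osmr, Il6ra, Jak1, Stat3 and Socs3, although replicate 4 held those of Il6, Il11 and Lif. The ligands and the other genes therefore did not order the normal cultures the same way. The 3 ligands were higher in mean against either kind of normal array, with the smaller differences against the ls arrays. For Osmr, Jak1, Jak2 and Socs3 the differences against ls arrays were the larger ones. Whether a difference varies with the prefix was not tested. With the prefix as a second term limma called 0 of the 9 genes and 0 of all genes, with 3 and 2649 at an unadjusted p under 0.05.

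**Figure D4:**
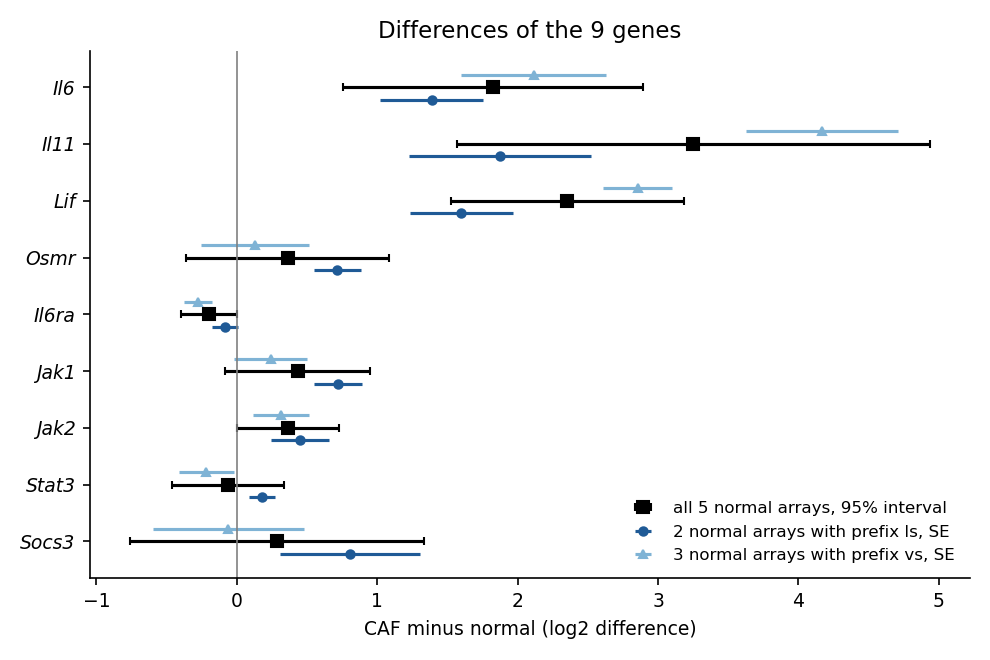
CAF minus normal log2 difference of the 9 genes with 95% interval over all 5 normal arrays (squares), and with SE against the 2 normal arrays with prefix ls (circles) or the 3 with prefix vs (triangles). The 3 ligands lie to the right of 0 in each comparison, and the interval of Jak2 is the only other one above 0.

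The rest of the pathway was read from lists by role. Of 5 other ligands measured, 1 rose, Clcf1, a cardiotrophin-like cytokine, by 1.18 ± 0.20 or 2.27-fold (limma adjusted p = 0.0483). It was 0.81 ± 0.20 from the ls normals and 1.43 ± 0.18 from the vs normals. With 1 array left out Clcf1 differed by 1.07 to 1.31 and kept its call in 2 of 10 cases, without normal replicate 2 or 4. Earlier literature on fibroblasts of lung tumours treats Clcf1 and Il6 and may have used these arrays, so neither is an independent finding. Osm, oncostatin M, the ligand of Osmr, had 0.61 ± 0.28, the cytokine gene Il31 0.12 ± 0.06 and Ctf1, cardiotrophin, -0.29 ± 0.17, with adjusted p-values of 0.239 to 0.338. The list had 3 positive and 2 negative differences and a median of 0.12, the value of Il31. Il31 was very dim, with means of 4.82 in normal and 4.94 in CAF. The array medians were 6.76 to 6.80 in normal and 6.73 to 6.74 in CAF.

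The other receptor chains all had lower means in CAF, and 0 of the 5 passed. Lower means were also found in 10416 of all 18193 genes and in 6831 of the 9097 dimmer genes. Cntfr, the chain for ciliary neurotrophic factor, had -0.36 ± 0.11 (limma adjusted p = 0.106) with no overlap between groups. Lack of overlap in this direction held for 4.19% of all genes and for 606 of the 9097 dimmer genes. Il31ra had -0.18 ± 0.07 and Lifr, the receptor of Lif, -0.49 ± 0.36. Cntfr and Il31ra are dim, as Il6ra is. Il6st, the gene of gp130, is described for its role and lies outside the naming rule. It had 12.15, 14.23, 11.19, 11.30 and 12.02 on normal and 11.42, 11.41, 11.74, 11.85 and 11.23 on CAF replicates 1 to 5. Normal replicate 2 lay far above the others, and the remaining arrays of both groups overlapped (difference -0.65 ± 0.51, limma adjusted p = 0.473). The list median was -0.36, and it was -0.13 from the ls normals alone.

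Among 7 other JAK kinases and STAT factors 0 passed, with 2 positive and 5 negative differences and a median of -0.06, which was 0.18 from the ls normals and -0.23 from the vs normals. Stat5b had -0.28 ± 0.09, Stat5a 0.39 ± 0.20 and Stat6 0.16 ± 0.13, factors that serve other cytokine receptors, with adjusted p-values of 0.134 to 0.466. The paired factors Stat5a and Stat5b thus had opposite signs.

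The list of 15 other inhibitors of the pathway had 11 positive and 4 negative differences and a median of 0.21, and 0 passed. Positive differences made up 42.7% of all genes and 60.6% of the brighter genes. Socs7 had 0.53 ± 0.12 (limma adjusted p = 0.0683), Socs4 0.55 ± 0.13 (adjusted p = 0.0748) and Pias2, which restrains STAT activity in the nucleus, 0.53 ± 0.15 (adjusted p = 0.0938). Socs5 had -0.26 ± 0.12, the smallest p among negative differences. The groups did not overlap in 4 inhibitors, all higher in CAF: Socs4, Socs6, Socs7 and Ptpn11, a phosphatase. This held for 2.97% of all genes and for 457 of the 9096 brighter genes. The lowest CAF array exceeded the highest normal array by only 0.0091 in Ptpn11, 0.022 in Socs4, 0.07 in Socs6 and 0.10 in Socs7. On the second-brightest probe sets the groups again did not overlap in Socs6 and Socs7, but did in Socs4 and Ptpn11. Of the 4, Socs6 (0.34 ± 0.10, limma adjusted p = 0.104) and Ptpn11 (0.53 ± 0.16, limma adjusted p = 0.108) were named after their values were seen. The largest differences, also named afterwards, were those of Socs2, 1.15 ± 0.36, and Cish, 0.87 ± 0.25 (adjusted p = 0.118 and 0.0943), both feedback genes of STAT5 signalling. Socs2 differed by 0.46 ± 0.29 from the ls normals and by 1.60 ± 0.28 from the vs normals. The second-brightest probe sets of Socs2 and Socs7 had the same sign as the one used, 1.25 ± 0.39 and 0.56 ± 0.12. That of Socs4 had -0.16 ± 0.09. Still dimmer ones ranged from -0.24 to 1.07 for Socs2, and had 0.12 and 0.0063 for Socs4 and -0.025 and -0.086 for Socs7.

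Genes known as STAT3 targets had differences of both signs. Of 26, 0 passed, 15 had positive and 11 negative differences, and the median was 0.04. The sign of that median depended on the reference: it was 0.34 from the ls normals and -0.18 from the vs normals. Lcn2, lipocalin, an acute-phase protein, had 7.16, 11.42, 11.64, 7.55 and 6.64 on normal and 13.24, 9.36, 12.77, 13.73 and 13.42 on CAF replicates 1 to 5. CAF replicate 2 fell among the normal arrays, and the difference of 3.62 ± 1.23 did not pass (limma adjusted p = 0.134; 5.41 ± 1.14 from the ls normals and 2.43 ± 1.33 from the vs normals). The smallest p of the 26 was that of Irf1, an interferon-response factor with a lower mean in CAF, -0.45 ± 0.10 (limma adjusted p = 0.0676). Fgl2, a fibrinogen-like protein, had 0.81 ± 0.23 (limma adjusted p = 0.0999). Irf1 and Fgl2 were the 2 targets without overlap between the groups, which held for 7.16% of all genes in either direction. A total of 8 of the 26 had an unadjusted p under 0.05, a share to be read against 4054 of all 18193 genes.

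**Figure D5:**
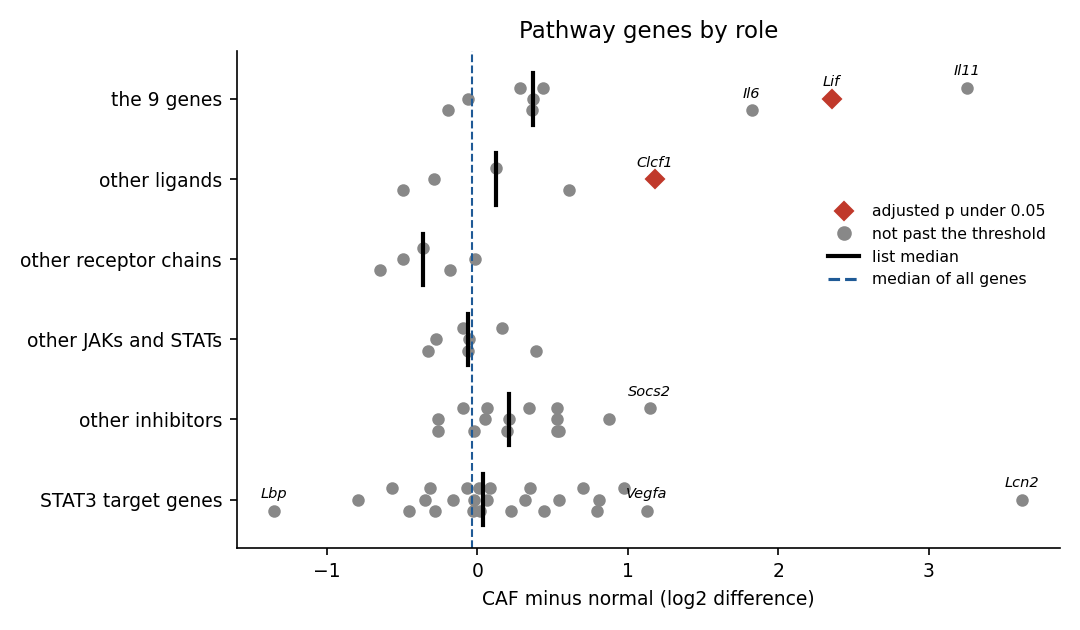
CAF minus normal log2 difference of each measured pathway gene, in rows by role; red diamonds passed the test, grey circles did not, black bars are list medians and the dashed line is the median of all genes (-0.04). Lif and Clcf1 are the diamonds, and the rows of STAT3 targets and of other JAKs and STATs are centred near the dashed line with all 5 normal arrays as the reference, while their medians are 0.34 and 0.18 from the ls normals and -0.18 and -0.23 from the vs normals.

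Genes with the pattern most like each ligand were taken by Pearson correlation over the 10 arrays among 8669 genes. These arrays share the group difference, so the correlation after removal of the group means is given too, and both describe these arrays only. The 5 most like Il6 were Ptges, Snapc1, Rasl12, Ell2 and Nfkbiz, with r of 0.97, 0.97, 0.96, 0.96 and 0.95, and 0.90 to 0.95 without group means. For Il11 they were Ctbp2, Znhit6, Zwint, Snx15 and Kcnq5, each with r of 0.96, and 0.86 to 0.91 without group means. For Lif they were Tmem41a, H13, Arhgap31, Tent4b and Eaf1, with r of 0.97 to 0.98, and 0.87 to 0.93 without group means. No gene was among the 5 of more than 1 ligand. The 15 genes were chosen for likeness over arrays that include the group difference, so calls among them are not independent of that choice. Calls higher in CAF made up 0.561% of all genes and 84 of the 9096 brighter genes. Of the 15, Zwint (0.42 ± 0.07), Tmem41a (0.79 ± 0.11), Arhgap31 (0.86 ± 0.11) and Tent4b (0.49 ± 0.09) were called higher in CAF, with limma adjusted p-values of 0.0271 to 0.0484. With 1 array left out these 4 kept their calls in 1, 3, 4 and 1 of 10 cases, and each kept it without normal replicate 4. Ptges, a prostaglandin E synthase, had 1.90 ± 0.37 (adjusted p = 0.0529).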

How the data were processed

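Total RNA of 10 cultures, 5 per group by title, was labelled from 6 ug and hybridised to 1-colour Affymetrix arrays. The authors' deposited table holds log2 values made with RMA in Affymetrix Expression Console, per the submitters' processing notes; versions are not given in the sources used here. RMA quantile-normalises the arrays, so differences are relative to other probe sets of the same array, and without detection calls a low value cannot be told from background. Of 45101 probe sets, 64 controls were left out; 34945 had 1 gene symbol, 932 several and 9160 were not listed in the platform's gene table. Symbols were updated by Entrez number to GRCm38.p6 names (34741 matched), and the brightest single-symbol probe set stood for each of 18193 genes.

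Differences (CAF minus normal, with moderated SE) were fitted in R 4.3.3 by limma 3.58.1 (lmFit, eBayes) with group as the only term and adjusted over all genes by Benjamini-Hochberg; every adjusted p is from this fit unless named. The procedure was tested on simulated data. Precision is limited by 5 arrays per group. The titles do not say whether replicate numbers pair arrays, and no block was used in the main fit. The members and lists were chosen with earlier results of these data known. Named genes are the 9 members, the called genes and 3 smallest p-values of each list with the best in the other direction, the 5 most correlated genes per ligand (among brighter genes, without clone names, predicted and sex-linked genes), and the 3 brightest markers of each cell type list described. Alternatives covered single arrays left out, scaling, label prefix, probe set choice, array weights, prior, filter and an exact Wilcoxon test. Some members of the pathway lists were not analysed here.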

Additional observations from a re-analysis of the deposited data

Results flagged for a closer look

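Jak2 stood out on 1 CAF array: replicate 4 had a log2 level of 11.88, while the other CAF arrays lay between 11.16 and 11.34, a gap that is 0.749 of the range of the group against a critical value of 0.71. This was the only such value in 18 groups looked at (9 genes, 2 groups each), and chance gives about 1 in 20. Without that array the difference of Jak2 was 0.24.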

How the results depend on the processing

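Lif, Il6, Il11, Jak1 and Jak2 stayed higher in CAF under every alternative run for them, with ranges of 1.60 to 2.86, 1.39 to 2.12, 1.88 to 4.17, 0.24 to 0.72 and 0.24 to 0.58. Calls were less stable, and where no value below shows why, the cause was not tested. The count of genes called, 137, became 285 with arrays centred on their medians, 1597 with array quality weights, 46 with a trended robust prior, 50 among the brighter genes, 1 against the ls normal arrays, 0 with the prefix term, 0 with the replicate block and 0 by the exact Wilcoxon test (3017 genes at an unadjusted p under 0.05 with the block, 3190 by Wilcoxon). It was 0 to 166 with 1 array left out: dropping normal replicate 1, 4 or 5 gave 24, 63 or 46, dropping CAF replicate 4 gave 1, and dropping normal replicate 3, CAF replicate 1, CAF replicate 3 or CAF replicate 5 gave 0 (3003 to 3852 at an unadjusted p under 0.05). The share of higher calls was 74.5%, 46.7% after quantile normalisation (92 calls) and 87.7% after centring. Of the 9 members 0 to 2 were called with 1 array left out, 2 against the vs arrays, 3 with array weights (Il6 1.73, Il11 2.63 and Lif 2.06), and 0 against the ls arrays, with the prefix term, with the block or by Wilcoxon. Il11 was called against the vs arrays (4.17) and ranged from 2.70 to 3.92 with 1 array left out; Lif ranged from 2.17 to 2.68. Lif missed the threshold with the replicate block (2.35, limma adjusted p = 0.186) and by Wilcoxon (2.35, exact test, adjusted p = 0.111). It also missed it at 1.60 against the ls arrays or with the prefix term. In the Wilcoxon test the smallest p that 5 against 5 arrays allow, 0.00794, was shared by the 1302 genes without overlap, Lif among them. The lowest adjusted p of any gene was therefore 0.111, so this test could not have called Lif or any other gene here. Same-numbered arrays correlated from -0.53 to 0.34 in their deviations from group means, and other pairs had a median of 0.049. Only normal replicate 1 correlated best with the CAF array of its own number. The labels do not say whether the numbers pair the cultures, and these correlations cannot decide it. Signs turned for Osmr on its dimmest probe set (-0.051), for Il6ra on its other probe set (0.10, also with plain _at probe sets first), for Stat3 against the ls arrays or with the prefix term (0.18), with array weights (0.078) and with 1 array left out (-0.16 to 0.061), and for Socs3 against the vs arrays (-0.061) and on its other probe sets (-0.031 and -0.034, the latter also with plain _at probe sets first). The median of the other receptor chains was -0.13 against the ls arrays or with the prefix term and -0.41 to -0.15 with 1 array left out, and that of the other inhibitors 0.39 with plain _at probe sets first. Il6ra was too dim to be tested among the brighter genes.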
